A study of Homo sapiens with 4 samples.

Results

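The 10 genes described here encode matrix metalloproteinases (MMPs), and they were taken from the table of deposited expression values by gene symbol: the collagenases MMP1 and MMP13, the stromelysins MMP3 and MMP10, the gelatinases MMP2 and MMP9, the matrilysin MMP7, the metalloelastase MMP12 and the membrane-type enzymes MMP14 and MMP16. All 10 were found among the 19215 genes of the table, which also lists 12 other MMP genes. The cells are C28/I2, an immortalised human chondrocyte line grown in medium with fetal bovine serum. The libraries are bulk RNA-seq of total RNA after 48 h with 25 ng/mL FABP4, an adipokine that binds fatty acids (2 libraries), or after 48 h with 0.5% DMSO (2 libraries). The labels give no vehicle for the FABP4 cells. If these had no DMSO, an effect of FABP4 cannot be told apart from that of DMSO. The labels also do not say whether the 2 libraries of a group came from separate cultures. A p-value here thus speaks only of these 4 libraries. The limma p-values also rest on a spread partly borrowed from all tested genes.

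MMPs are zinc-dependent proteases that are made as inactive proenzymes, activated by cleavage outside the cell or at its surface, and blocked by tissue inhibitors (TIMPs). Collagenases cut the triple helix of fibrillar collagen, stromelysins cut proteoglycans and activate other proenzymes, and gelatinases degrade denatured collagen. In cartilage MMP13 is the collagenase most closely tied to the breakdown of type II collagen, and the AP-1 transcription factor, a dimer of FOS and JUN family proteins, is a known inducer of several MMP promoters.

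The members share a catalytic site in which 3 histidines hold the zinc ion. The coding bases of that site are shown for 7 members, to be set beside the likeness of the whole genes, which bears on how reads are assigned. They are the 33 bases of the longest coding GENCODE 29 transcript, 5′ to 3′, with the 3 histidine codons in capitals.
MMP1: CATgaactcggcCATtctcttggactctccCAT
MMP13: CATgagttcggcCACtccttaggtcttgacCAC
MMP3: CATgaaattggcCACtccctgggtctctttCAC
MMP10: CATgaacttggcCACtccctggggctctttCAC
MMP12: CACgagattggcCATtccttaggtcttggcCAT
MMP2: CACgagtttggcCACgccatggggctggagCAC
MMP14: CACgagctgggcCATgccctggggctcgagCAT

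MMP3 and MMP10 differed at 2 of these 33 bases, against 11 between MMP1 and MMP13. MMP12 and MMP13 differed at 6, as did MMP2 and MMP14. Over the aligned coding sequence MMP3 and MMP10 were 85.2% identical and MMP1 and MMP13 61.3%. MMP12 and MMP13 were 60.4% identical and MMP2 and MMP14 53.2%, so a similar site did not always go with a similar gene. Of all 50-base windows of the MMP10 transcript, 3.45% also occur in MMP3, and 3.0% of the MMP3 windows occur in MMP10. AC007336.3, an annotated transcript on the same strand within the MMP2 locus, holds 3.44% of the MMP2 windows. The other 7 members shared no such window with any other annotated gene. MMP1, MMP3 and MMP10 overlap the pseudogene transcript WTAPP1 on the opposite strand. MMP2 (AC007336.2 and MMP2-AS1), MMP9 (SLC12A5-AS1) and MMP16 (AC090578.1) also overlap annotated genes on the opposite strand. These overlaps are of whole gene spans, introns included. Whether the counting used strand is not given in the sources used here, so a part of the reads of these members could belong to the overlapping genes.

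Promoter entries were found for 3 members, MMP7, MMP10 and MMP14. Their last 120 bases before the transcription start are shown because the transcript of the AP-1 subunit FOS differed between the conditions, and because they hold or lack the AP-1 motif. The sequences are from RefSeq on GRCh38.p14, 5′ to 3′ on the gene's strand, with matches to the AP-1 motif TGANTCA and the TATA box motif TATAAA in capitals.
MMP7 (minus strand, chr11:102530748-102530867): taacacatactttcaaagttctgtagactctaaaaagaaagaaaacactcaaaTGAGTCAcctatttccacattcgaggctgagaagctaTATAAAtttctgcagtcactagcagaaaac
MMP10 (minus strand, chr11:102780629-102780748): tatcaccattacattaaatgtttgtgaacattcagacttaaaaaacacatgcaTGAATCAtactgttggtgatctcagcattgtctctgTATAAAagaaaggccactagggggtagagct
MMP14 (plus strand, chr14:22836465-22836584): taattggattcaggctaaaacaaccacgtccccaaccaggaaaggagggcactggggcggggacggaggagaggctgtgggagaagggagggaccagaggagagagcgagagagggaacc

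Over the 250 bases before the start, MMP7 and MMP10 each held TGANTCA at positions -67 to -61, a motif that reads the same on both strands apart from its middle base. MMP7 held TATAAA at -30 to -25 and MMP10 at -31 to -26, searched on the gene's own strand. MMP14 held neither. Of 35116 RefSeq promoters, 6.57% held TGANTCA on either strand and 6.80% held TATAAA. The GC content of these 250 bases was 33.6% in MMP7, 34.4% in MMP10 and 56.8% in MMP14, against a median of 58.0% over all promoters. A match describes letters in this window and says nothing of binding.

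The C28/I2 libraries expressed a broad set of MMPs, led by the gelatinase A gene MMP2, the stromelysin-1 gene MMP3 and the membrane-type gene MMP14. Levels are FPKM (fragment density corrected for transcript length and library size), so they can be compared between genes. Averaged over the 4 libraries, the order was MMP2 (634 FPKM), MMP3 (538.5), MMP14 (190), MMP1 (24.7), MMP12 (16.4), MMP7 (8.905), MMP13 (6.155), MMP9 (2.32), MMP16 (0.62) and MMP10 (0.545). The 4-library ranges of MMP16 and MMP10 overlapped, and those of every other pair of neighbours in this order did not. The nearest of these were MMP2, at 573.26 FPKM in its lowest library, and MMP3, at 568.59 FPKM in its highest. By level, MMP2 lay above 99.3% of all genes in the table and MMP10 above 31.3%. MMP2, MMP3 and MMP14 together made up 95.7% and 95.9% of the members' summed FPKM with FABP4 (replicates 1 and 2), against 95.9% and 95.6% with DMSO (replicates 1 and 2).

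**Figure D1:**
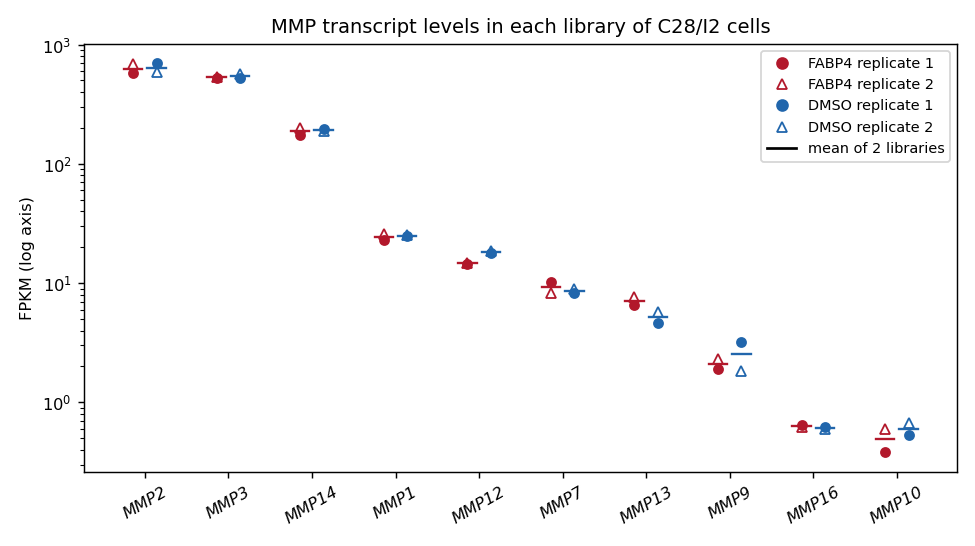
FPKM of each MMP member on a log axis, in FABP4 libraries (red, left of each pair) and DMSO libraries (blue, right), with the mean of the 2 libraries of a group as a line. MMP12 and MMP13 are the members whose 2 groups do not overlap, and the members span from 0.38 FPKM (MMP10) to 694.39 FPKM (MMP2).

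The order of the group means was the same with FABP4 and with DMSO, and no member passed the test for a difference. Of the 10 members 8 could be tested (1 FPKM or more in 2 or more libraries), and MMP10 and MMP16 could not. In limma, with Benjamini-Hochberg adjustment over all 12490 tested genes, 0 of the 8 passed an adjusted p of 0.05, where 0.592% of all tested genes did. At an unadjusted p under 0.05 there were 2, MMP13 and MMP12, where 9.68% of all tested genes lay under it. Groups that do not overlap were seen in the same 2 of 8 members, against 36.9% of all tested genes. The authors' deposited table gives 0 of the 10 a q under 0.05, where 0.655% of its genes have one, with q values of 0.970 for MMP12 and 0.998 for the other 9. The median log2 fold change of the 8 was -0.036, beside 0.014 over all tested genes, with 2 members above 0 and 6 below.

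Among the collagenases, MMP13 (gene ID 4322, chromosome 11, 102942995 to 102955734, minus strand, GRCh38) had the largest log2 fold change of the 8 tested members in limma, on log2(FPKM + 1). It stood at 6.59 and 7.65 FPKM with FABP4 (replicates 1 and 2), against 4.65 and 5.73 FPKM with DMSO (replicates 1 and 2). Both FABP4 libraries lay above both DMSO libraries, as in 20.7% of all tested genes. The means were 7.12 ± 0.750 FPKM with FABP4 and 5.19 ± 0.764 FPKM with DMSO (SD, n = 2 each), a ratio of 1.37. On the log2(FPKM + 1) scale the difference was 0.39 (SE 0.13, 95% interval 0.12 to 0.67, unadjusted p = 0.00832 and adjusted p = 0.240 in limma), the 433rd smallest p of the 12490. The authors' deposited table gives a log2 fold change of 0.26 with an unadjusted DESeq2 p of 0.191.

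The depth behind MMP13 was estimated at 197 and 210 fragments with FABP4 (replicates 1 and 2) and at 142 and 181 with DMSO (replicates 1 and 2). In FPKM, the lower FABP4 value and the higher DMSO value lay closer to each other than the libraries within either group. Leaving out DMSO replicate 1 gave a log2 fold change of 0.27 (adjusted p = 0.505 in limma), and leaving out DMSO replicate 2 gave 0.52 (adjusted p = 0.143 in limma). Without FABP4 replicate 1 it was 0.49, and without FABP4 replicate 2 it was 0.30.

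MMP1, the interstitial collagenase gene (gene ID 4312, chromosome 11, 102789920 to 102798160, minus strand), had 22.80 and 25.87 FPKM with FABP4, against 24.81 and 25.24 FPKM with DMSO. The FABP4 libraries lay on either side of the DMSO libraries. The log2 fold change was -0.041 (SE 0.12, 95% interval -0.29 to 0.21, adjusted p = 0.979 in limma), an interval that corresponds to 0.818 to 1.16 times the DMSO level of FPKM + 1. The authors' deposited table gives -0.16 (q = 0.998). Of the summed collagenase FPKM of MMP1 and MMP13, MMP13 made up 22.4% and 22.8% with FABP4 (replicates 1 and 2), against 15.8% and 18.5% with DMSO (replicates 1 and 2).

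The stromelysin genes stood far apart in level despite their similar sequence. MMP3 (gene ID 4314, chromosome 11, 102835801 to 102843803, minus strand) had 524.23 and 538.02 FPKM with FABP4, against 523.26 and 568.59 FPKM with DMSO. The FABP4 values lay between the DMSO values, with a log2 fold change of -0.038 (SE 0.15, 95% interval -0.36 to 0.28, adjusted p = 0.986 in limma). MMP10 (gene ID 4319, chromosome 11, 102770503 to 102780628, minus strand), the stromelysin-2 gene, had 0.38 and 0.60 FPKM with FABP4, against 0.53 and 0.67 FPKM with DMSO, and its groups overlapped. That is an estimated 7 to 13 fragments a library, and the level is uncertain besides because of the windows shared with MMP3. In the fit of all genes with no filter its log2 fold change was -0.11 (95% interval -0.44 to 0.23, adjusted p = 0.830 in limma).

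MMP12 (gene ID 4321, chromosome 11, 102862736 to 102875034, minus strand), a metalloelastase known mainly from macrophages, was the tested member with the largest limma log2 fold change in the other direction, on log2(FPKM + 1). It stood at 14.50 and 14.76 FPKM with FABP4 (replicates 1 and 2), against 17.78 and 18.58 FPKM with DMSO (replicates 1 and 2). The groups did not overlap, with FABP4 lower, as in 16.1% of all tested genes, and the gap between them was wider than the spread within either. The means were 14.6 ± 0.184 FPKM with FABP4 and 18.2 ± 0.566 FPKM with DMSO (SD, n = 2 each), a ratio of 0.805.

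For MMP12 the log2 fold change was -0.30 (SE 0.11, 95% interval -0.54 to -0.053, unadjusted p = 0.0199 and adjusted p = 0.349 in limma), the 710th smallest p. The authors' deposited table gives -0.26 with an unadjusted DESeq2 p of 0.0794. The ratio of MMP13 to MMP12, both in FPKM, was 0.455 and 0.518 with FABP4 (replicates 1 and 2), against 0.262 and 0.308 with DMSO (replicates 1 and 2). That pair was chosen after its values were seen, and the ratio has no test. Of 6 macrophage markers 3 averaged at least 1 FPKM, and the list summed to 151 to 158 FPKM with FABP4 and 155 to 176 FPKM with DMSO, most of it from the lysosomal gene CD68. CSF1R, the receptor gene of a macrophage growth factor, averaged 2.24 ± 0.255 FPKM with FABP4 and 3.56 ± 0.156 FPKM with DMSO (adjusted p = 0.126 in limma). The marker MARCO averaged 2.38 ± 0.255 FPKM with FABP4 and 2.83 ± 0.0424 FPKM with DMSO, without overlap (adjusted p = 0.790 in limma). CD14, PTPRC (the gene of the leukocyte antigen CD45) and ITGAM stayed under 1 FPKM in every library. In that order they averaged 0.355 ± 0.0778, 0.0600 ± 0.0283 and 0.120 ± 0.127 FPKM with FABP4. With DMSO they averaged 0.0750 ± 0.106, 0.0150 ± 0.0212 and 0.0800 ± 0.0424 FPKM (SD, n = 2 each). The cells are the C28/I2 line, and the labels name no macrophages. The part of these markers in the MMP12 difference was not tested. In bulk RNA fewer expressing cells of the line cannot be told apart from less RNA per cell.

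**Figure D2:**
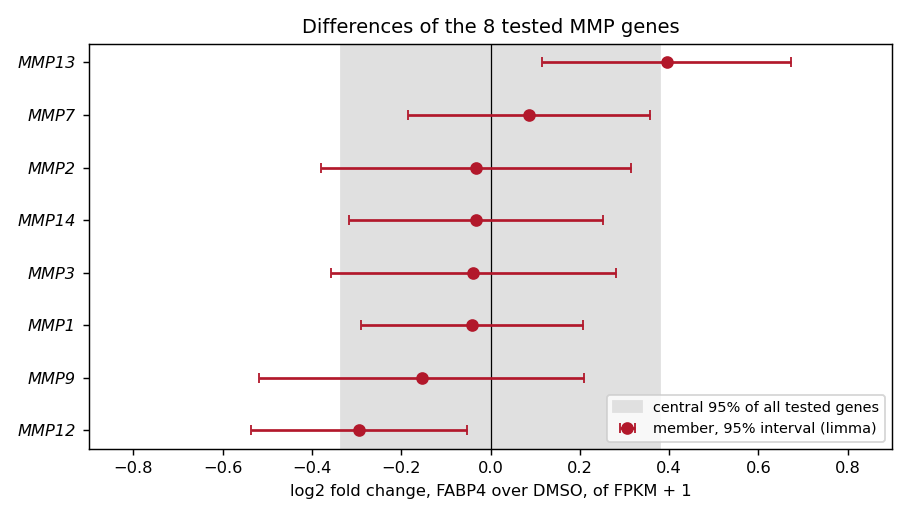
Log2 fold change (FABP4 over DMSO, on FPKM + 1) of the 8 tested MMP genes with limma's 95% interval, over a grey band that holds the central 95% of all 12490 tested genes (-0.335 to 0.378). The intervals of MMP13 and MMP12 leave out 0 before adjustment for the number of genes, and the other 6 include it. In the fit with no filter the interval of MMP13 includes 0 as well.

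The gelatinase and membrane-type genes differed little between the conditions relative to their spread. MMP2 (gene ID 4313, chromosome 16, 55389700 to 55506691, plus strand), whose proenzyme MMP14 activates at the cell surface, had 573.26 and 680.66 FPKM with FABP4, against 694.39 and 587.44 FPKM with DMSO. One library of each condition was high and one low, so the libraries within a condition differed more than the means of 627 ± 75.9 FPKM with FABP4 and 641 ± 75.6 FPKM with DMSO (log2 fold change -0.032, SE 0.16, 95% interval -0.38 to 0.31, adjusted p = 0.988 in limma). MMP14 (gene ID 4323, chromosome 14, 22836557 to 22849027, plus strand) had 175.29 and 200.46 FPKM with FABP4, against 196.91 and 186.82 FPKM with DMSO (log2 fold change -0.033, SE 0.14, adjusted p = 0.986 in limma).

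FABP4 replicate 1 was the lowest library for 5 of the 10 members, MMP2, MMP14, MMP1, MMP12 and MMP10. MMP9, the gelatinase B gene (gene ID 4318, chromosome 20, 46008908 to 46016561, plus strand), had 1.90 and 2.32 FPKM with FABP4, against 3.23 and 1.82 FPKM with DMSO (log2 fold change -0.15, SE 0.17, 95% interval -0.52 to 0.21, adjusted p = 0.905 in limma). The authors' deposited table gives -0.42 (unadjusted DESeq2 p of 0.200), the largest change of the 10 members in that table. DMSO replicate 1 alone stood apart here, and without it the log2 fold change was 0.14, while without DMSO replicate 2 it was -0.45 (adjusted p = 0.362 in limma). MMP16 (gene ID 4325, chromosome 8), a membrane-type gene, had 0.64 and 0.62 FPKM with FABP4, against 0.62 and 0.60 FPKM with DMSO, and the groups shared 1 value.

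MMP7 (gene ID 4316, chromosome 11, 102520508 to 102530753, minus strand), the gene of matrilysin, the short MMP without a hemopexin domain, had 10.25 and 8.19 FPKM with FABP4, against 8.19 and 8.99 FPKM with DMSO. The lower FABP4 library equalled the lower DMSO library. The log2 fold change was 0.086 (SE 0.13, 95% interval -0.19 to 0.36, adjusted p = 0.941 in limma).

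Of the 10 members 6 lie in 1 cluster of 9 MMP genes on chromosome 11 (102520508 to 102955734, 435.2 kb, GRCh38), with no other protein-coding gene between them in GENCODE 29. Levels along it ran from MMP7 through MMP20 (0 to 0.05 FPKM), MMP8 (0.03 to 0.17 FPKM) and MMP10 to MMP1, MMP3, MMP12 and MMP13. MMP3 thus stood at 538.5 FPKM beside MMP1 at 24.7 and MMP12 at 16.4 FPKM. MMP27, also in the cluster, had no entry under that symbol among the 19215 genes, so it has no level here. Of the 8 genes that flank the cluster in the list used, 7 were tested and 0 passed, where 0.592% of all tested genes did. The pair with the smallest p were CFAP300, a cilia gene, at 3.88 ± 0.410 FPKM with FABP4 against 2.69 ± 0.665 FPKM with DMSO (log2 fold change 0.41, adjusted p = 0.286 in limma), and DCUN1D5, at 11.03 ± 0.141 FPKM with FABP4 against 14.4 ± 2.001 FPKM with DMSO (log2 fold change -0.35, adjusted p = 0.286 in limma).

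**Figure D3:**
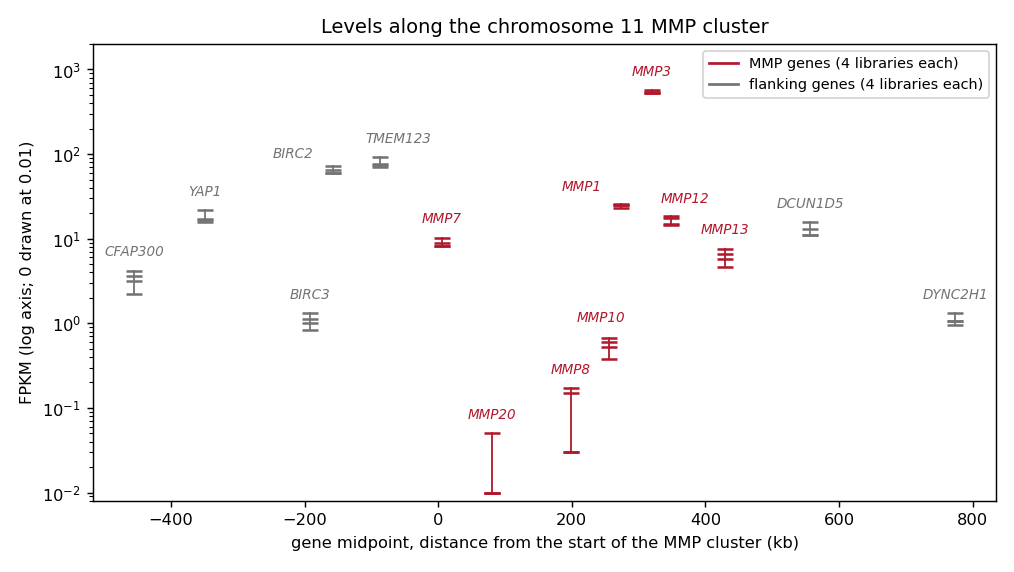
FPKM (log axis) of the MMP genes of the chromosome 11 cluster (red) and of flanking genes (grey) against distance from the start of the cluster in kb. Each gene has a mark for each of the 4 libraries, and a value of 0 is drawn at 0.01. The cluster holds MMP3 at 523.26 to 568.59 FPKM and, nearer its start, MMP10 at 0.38 to 0.67 FPKM.

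Of the 12 other MMP genes listed, 6 were tested, and 0 passed in limma, with 0 under an unadjusted p of 0.05. Of all tested genes 0.592% passed and 9.68% lay under that unadjusted p. MMP15, a membrane-type gene, averaged 38.4 ± 7.37 FPKM with FABP4 and 34.2 ± 6.94 FPKM with DMSO (log2 fold change 0.16, adjusted p = 0.862 in limma). MMP19 averaged 33.7 ± 4.84 FPKM with FABP4 and 36.5 ± 3.51 FPKM with DMSO (log2 fold change -0.11, adjusted p = 0.908 in limma). The other 6, among them the neutrophil collagenase gene MMP8 and the stromelysin-3 gene MMP11, stayed under 1 FPKM in every library, and MMP26 was listed at 0 in all 4.

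The inhibitors were expressed at levels near those of the proteases. TIMP1, the most abundant, averaged 1059 ± 37.9 FPKM with FABP4 and 1084 ± 180 FPKM with DMSO (adjusted p = 0.992 in limma), and TIMP2, which also takes part in the activation of proMMP2 by MMP14, averaged 152 ± 1.26 FPKM with FABP4 and 166 ± 11.7 FPKM with DMSO (adjusted p = 0.891 in limma). Of 5 tested inhibitor genes 0 passed, where 0.592% of all tested genes did. Under an unadjusted p of 0.05 in limma there was 1, where 9.68% of all tested genes lay under it. That was TIMP3, the inhibitor bound to the matrix, at 67.01 and 65.17 FPKM with FABP4 against 82.91 and 80.67 FPKM with DMSO (log2 fold change -0.30, SE 0.12, adjusted p = 0.356 in limma). The summed FPKM of the 10 MMPs was 1.02 and 1.19 times that of TIMP1 to TIMP4 with FABP4 (replicates 1 and 2), against 1.02 and 1.16 times with DMSO (replicates 1 and 2). The libraries within a condition differed more in this ratio than the conditions did.

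Of 6 tested genes for the activation of proMMPs or for its regulation, SERPINE2 among the latter, 0 passed in limma, where 0.592% of all tested genes did. Under an unadjusted p of 0.05 there were 2, both lower with FABP4, where 9.68% of all tested genes lay under it. PLAUR, the urokinase receptor gene, had 113.48 and 116.12 FPKM with FABP4, against 148.98 and 142.94 FPKM with DMSO (log2 fold change -0.34, adjusted p = 0.300 in limma), and PLAT, the tissue plasminogen activator gene, averaged 6.745 ± 0.728 FPKM with FABP4 and 8.43 ± 0.622 FPKM with DMSO (adjusted p = 0.453 in limma). CTSB, the cathepsin B gene and the most abundant of the list, averaged 611 ± 5.86 FPKM with FABP4 and 638 ± 0.177 FPKM with DMSO (adjusted p = 0.974 in limma). The plasminogen gene PLG and the urokinase gene PLAU stayed under 1 FPKM.

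Of 15 tested transcription factor genes known to act on MMP promoters 2 passed in limma, 1 in each direction, where 0.592% of all tested genes passed, and 5 lay under an unadjusted p of 0.05, where 9.68% of all tested genes did. These 2 were the only calls in the lists described here. FOS, an AP-1 subunit, was higher with FABP4, at 28.86 and 27.96 FPKM, against 10.19 and 7.60 FPKM with DMSO (log2 fold change 1.58, SE 0.13, adjusted p = 1.253e-05 in limma). ETV5, an ETS family factor, was lower with FABP4, at 4.44 and 3.71 FPKM, against 6.53 and 6.62 FPKM with DMSO (log2 fold change -0.58, SE 0.13, adjusted p = 0.0489 in limma). ETV5 did not pass when FABP4 replicate 2 was left out (adjusted p = 0.330 in limma), nor without DMSO replicate 1 (adjusted p = 0.0685) or DMSO replicate 2 (adjusted p = 0.113), nor with a pseudocount of 0.1, quantile normalization or the replicate block (adjusted p = 0.0524, 0.0953 and 0.0900). With no filter, where 0 genes passed in all, the adjusted p was 0.343 for FOS and 0.478 for ETV5. FOSL1, an AP-1 subunit at a higher level than FOS, averaged 125 ± 3.66 FPKM with FABP4 and 182 ± 0.898 FPKM with DMSO (log2 fold change -0.54, adjusted p = 0.0661 in limma), and JUNB 34.8 ± 0.820 FPKM with FABP4 and 26.6 ± 2.75 FPKM with DMSO (log2 fold change 0.38, adjusted p = 0.210 in limma). FOSB, another AP-1 subunit, was too low to be tested, at 0.84 and 1.15 FPKM with FABP4, against 0.21 and 0.13 FPKM with DMSO. The 3 members with a promoter window above, MMP7 and MMP10 with TGANTCA and MMP14 without it, all had overlapping groups, and MMP10 was not tested. No promoter was examined for the other members, MMP13 and MMP12 among them. A link between FOS and the level of any member was not tested.

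Among the genes upstream of MMPs, 9 of 15 were tested and 0 passed in limma, where 0.592% of all tested genes did. LIF, a cytokine of the interleukin-6 family, averaged 5.48 ± 1.03 FPKM with FABP4 and 7.425 ± 0.120 FPKM with DMSO (log2 fold change -0.39, adjusted p = 0.254 in limma). The receptor genes IL1R1 and OSMR, through which interleukin-1 and oncostatin M act, averaged 10.2 ± 0.0283 and 31.2 ± 0.643 FPKM with FABP4, against 9.90 ± 0.311 and 30.4 ± 3.50 FPKM with DMSO, in that order of genes. The cytokine genes IL1A, IL1B, TNF and IL6 stayed under 1 FPKM in every library, and OSM was listed at 0. Of the aggrecanase genes ADAMTS1 and ADAMTS15 could be tested, and 0 passed, beside the same share of all tested genes. ADAMTS4 (0.01 to 0.05 FPKM), ADAMTS5 (0 to 0.01 FPKM), ADAMTS8 and ADAMTS9 stayed under 1 FPKM in every library and were not tested. ADAMTS1 averaged 1.16 ± 0.0141 FPKM with FABP4 and 1.62 ± 0.0424 FPKM with DMSO (adjusted p = 0.583 in limma), and ADAMTS15 5.79 ± 0.580 FPKM with FABP4 and 5.10 ± 0.0283 FPKM with DMSO (adjusted p = 0.829 in limma).

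Of 8 tested matrix genes whose products MMPs cut, 7 lay below 0 and 1 above in log2 fold change. Their median was -0.073, beside 0.014 over all tested genes, and a shared direction of the list was not tested. In limma 0 of the 8 passed, where 0.592% of all tested genes did. Under an unadjusted p of 0.05 there was 1, where 9.68% of all tested genes lay under it. That was COL4A1, a basement membrane collagen gene, at 28.1 ± 5.18 FPKM with FABP4 and 38.9 ± 2.33 FPKM with DMSO (log2 fold change -0.46, SE 0.13, adjusted p = 0.141 in limma). COL1A1, the fibrillar type I collagen gene and the most abundant, averaged 959 ± 233 FPKM with FABP4 and 981 ± 95.3 FPKM with DMSO (adjusted p = 0.984 in limma).

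**Figure D4:**
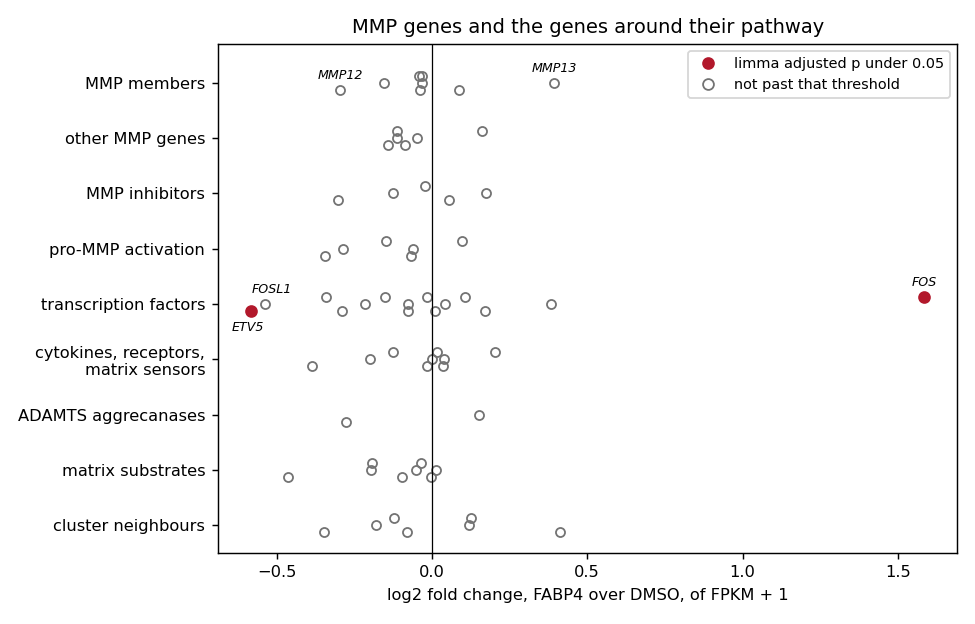
Log2 fold change (FABP4 over DMSO, on FPKM + 1) of the tested genes of the MMP family and of the lists described around it, 1 row per list. Filled red points passed a limma adjusted p of 0.05, which FOS and ETV5 did and no other gene shown did.

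The chondrocyte label was checked against marker genes. Of 12 chondrocyte markers 3 averaged at least 1 FPKM, namely the transcription factor gene SOX9 (9.395 ± 0.827 FPKM with FABP4 and 11.3 ± 0.0354 FPKM with DMSO), the aggrecan gene ACAN (3.11 ± 0.820 FPKM with FABP4 and 3.085 ± 0.290 FPKM with DMSO) and the collagen gene COL11A2 (3.98 ± 0.0283 FPKM with FABP4 and 2.925 ± 0.205 FPKM with DMSO). The type II collagen gene COL2A1, which defines hyaline cartilage, stood at 0.025 ± 0.0354 FPKM with FABP4 and 0.01 ± 0.0141 FPKM with DMSO, and COL9A1 and CNMD were listed at 0 in all libraries. Of 8 fibroblast markers 4 averaged at least 1 FPKM. The list summed to 1208 to 1669 FPKM in FABP4 libraries and 1367 to 1537 FPKM in DMSO libraries, nearly all of it from the type I collagen genes COL1A1 and COL1A2, while DCN, LUM, THY1 and POSTN averaged 0.0725 to 0.26 FPKM over the 4 libraries. Estimated depth was 11225000 to 12225000 fragments with FABP4 and 12500000 to 12900000 with DMSO. Over the tested genes, and not over replicates, Pearson's r of log2(FPKM + 1) was 0.994 for the FABP4 pair, 0.993 for the DMSO pair and 0.991 to 0.993 for pairs that cross the conditions.

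**Figure D5:**
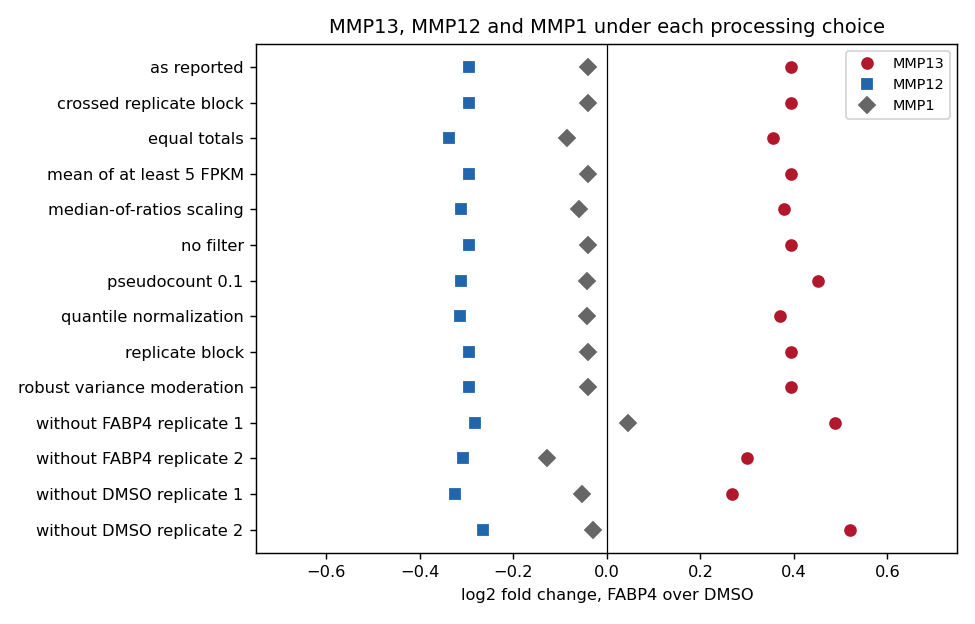
Log2 fold change (FABP4 over DMSO) of MMP13 (red circles), MMP12 (blue squares) and MMP1 (grey diamonds) as reported and under each of 13 processing choices, 1 row each. MMP13 stays between 0.27 and 0.52 and MMP12 between -0.34 and -0.26, and MMP1 changes sign without FABP4 replicate 1. The choices of filter, variance moderation and block repeat the reported value by construction.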

How the data were processed

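The authors' table, as deposited, gives 1 FPKM column a library, per the file headers. Beside these stand the authors' own DESeq2 results, per the file headers: a log2 fold change, a p-value and a q-value, the first being positive where FABP4 is higher (same sign as the FPKM ratio in 99.4% of 476 genes with a log2 ratio beyond 0.5 either way). The submitters' processing notes name GRCh38.p13, RSEM 1.2.12, Bowtie2 2.2.5 and DESeq2 1.4.5 for the authors' work, with no role stated; the annotation is not given in the sources used here.

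Values were taken as log2(FPKM + 1), and the 12490 genes at 1 FPKM or more in 2 or more libraries were fitted with limma 3.58.1 in R 4.3.3 on the condition alone, with a variance trend, two-sided tests and Benjamini-Hochberg adjustment over all of them at 0.05. This scale understates changes of low genes. With 2 libraries a group the fit has 2 residual degrees of freedom, to which limma adds those of the trend. The members, gene lists and rule for named genes were chosen with earlier results of these data known. Named are all members and, of each other list, called genes, or else those with the smallest p or the highest level. The macrophage markers, FOSL1, FOSB, JUNB, IL1R1, OSMR and the genes named as low were picked with their values in view. A gene of the activation list is not reported here and is left out of its counts.

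Depth was estimated from low FPKM of single-exon genes as whole multiples of 1 fragment (fragment length fitted at 270 bases, 94 to 126 genes a library, mean distance to a whole number 0.140 to 0.147). The search ran over a preset range of depths and fragment lengths, and the distance expected at a wrong depth was not computed. Fragments behind a member assume its longest coding transcript and are estimates, not counts. Gene coordinates are those of GENCODE 29 on GRCh38, and promoters those of RefSeq on GRCh38.p14, which held 3 of the 10 members.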

Additional observations from a re-analysis of the deposited data

How the results depend on the processing

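Under 12 other processing choices and 1 added after the data were seen, 0 of the tested members passed an adjusted p of 0.05 in limma. Of 103 member log2 fold changes under these alternatives 95 kept their sign, and the 8 that turned all came from leaving out 1 library. The choices of filter, variance moderation and block leave a member's log2 fold change as it is by construction. Only the other choices could turn a sign. With each library left out in turn, MMP1 ranged from -0.13 to 0.046, MMP2 from -0.16 to 0.092, MMP3 from -0.098 to 0.021, MMP7 from -0.060 to 0.23, MMP9 from -0.45 to 0.14 and MMP14 from -0.13 to 0.063. MMP13 (0.27 to 0.52) and MMP12 (-0.33 to -0.26) did not turn. Over its alternatives the limma adjusted p was 0.0728 to 0.869 for MMP13 and 0.129 to 0.805 for MMP12. With no filter the 95% interval of MMP13 was -0.065 to 0.853 and included 0 (unadjusted p = 0.0714 in limma). That of MMP12 was -0.434 to -0.156 (unadjusted p = 0.00701 in limma). MMP9 has no value with a mean of at least 5 FPKM.

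The count over all genes moved more, from 74 (37 higher, 37 lower) to 0 with no filter (1710 at an unadjusted p under 0.05), 156 with a mean of at least 5 FPKM, 180 with equal totals (65 higher, 115 lower), 10 after quantile normalization (3 higher, 7 lower), 164 with robust variance moderation and 49 to 150 with a library left out; the cause was not tested. Replicate numbers are shared by the titles, but nothing says that they pair libraries, and the deviations of same-numbered libraries correlated at -0.119 over genes. With the replicate block 47 genes were called, and 418 with the crossed replicate block (added after the data were seen), with 0 members in either. Depth limits MMP10 and MMP9 most, with an estimated 7 to 13 and 48 to 83 fragments a library.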

Other observations

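The tested genes whose 4 library values lay closest to those of MMP13, by root mean square distance of log2(FPKM + 1) after removing each gene's mean, were SPATA7, COA5 and PIK3IP1 (0.020 to 0.024), and 230 genes lay within 0.1. For MMP1 the nearest were ACACA, PCDHB14 and SHPK, and for MMP3 they were FNDC3B, FAF2 and HAVCR2. With 4 libraries such likeness is common: 3821 genes lay within 0.1 of MMP1 and 5207 within 0.1 of MMP3.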
